A study of Mus musculus with 10 samples.

Results

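Transcript levels of 9 genes that write or read histone acetylation were examined in sorted mouse fetal oocytes that carried or lacked functional Taf4b. The genes are the acetyltransferases Ep300, Crebbp, Kat2a, Kat2b, Kat5, Kat6a, Kat6b and Kat7 and the bromodomain reader Brdt. They were chosen by symbol in the deposited expression table and matched by gene identifier to the count table, and all 9 of the 55536 genes counted were found once. TAF4b belongs to TFIID, the complex that recognises core promoters and starts assembly of the transcription machinery, and the design compares heterozygous oocytes with oocytes deficient in it. RNA was sequenced from 10 libraries of female E16.5 ovaries of the strain C57BL/6, of which 5 were Taf4b-heterozygous and 5 Taf4b-deficient. Parents of both groups were heterozygous for the Taf4b deficiency mutation and homozygous for an Oct4-EGFP transgene, so that every embryo of both groups carried the reporter. Live cells, which exclude propidium iodide, were sorted by their green fluorescence. Both groups came from the same kind of mating, and the controls carried one mutant allele rather than none. The labels give 3 litter dates, each with both genotypes. They do not state whether each library is a different embryo, and the p-values therefore describe only how these libraries vary, technical variation included.

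Histone acetyltransferases move the acetyl group of acetyl-CoA onto lysines of histone tails, a mark found at active promoters and enhancers. They fall into families with separate catalytic domains: p300 and CBP, the GNAT enzymes GCN5 and PCAF, and the MYST enzymes. Bromodomains bind acetylated lysine, and the BET protein BRDT is best known from the testis, where it is needed for spermatogenesis. In fetal ovaries at this age the oocytes pass through meiotic prophase.

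RefSeq promoter windows on GRCm38.p6, the bases up to 250 before each annotated start, were read for 8 of the 9 genes in 11 windows; Kat6a had no entry. Shown are the paralogs Ep300 and Crebbp, whose ratio is compared between genotypes, and Kat5 and Brdt, whose windows hold the same pair of motifs. Capitals mark the GC box GGGCGG, which SP factors bind, in the first pair, and the E box CACGTG and the CCAAT box, which NFY binds, in the other pair. The Ep300 and Crebbp stretches lie within annotated exons and the other stretches overlap none. Their positions are chr15:81586088-81586117 on the plus strand for Ep300, chr16:4213412-4213441 on the minus strand for Crebbp, chr19:5610238-5610344 on the minus strand for Kat5 and chr5:107330944-107331158 on the plus strand for Brdt.
Ep300: ggaggaggaggaGGGCGGctctcagggtgg
Crebbp: ggcggcggccggGGGCGGGCGGtgagcgct
Kat5: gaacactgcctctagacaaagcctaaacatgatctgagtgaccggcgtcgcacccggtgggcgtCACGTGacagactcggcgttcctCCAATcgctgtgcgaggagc
Brdt: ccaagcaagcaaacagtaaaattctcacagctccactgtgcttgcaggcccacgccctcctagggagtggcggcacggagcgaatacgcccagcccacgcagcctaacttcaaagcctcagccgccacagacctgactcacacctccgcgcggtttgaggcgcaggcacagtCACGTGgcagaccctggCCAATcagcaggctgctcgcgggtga

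Both strands were searched. The Ep300 window held 1 GC box and the Crebbp window 2, which overlap, beside a GC box in 32.7% of all 32851 windows of the same length. The Kat6b windows share most of their bases and held the same 8 GC boxes, 2 of which overlap. The second Kat5 window held 3. Kat5 and Brdt each had 1 E box, found in 6.02% of all windows, and 1 CCAAT box, found in 33.8%. Kat7 had 2 CCAAT boxes, Kat2b had 1 in one of its windows, and the Kat2a window had none of the motifs searched. Neither the TATA box TATAAA (12.4% of all windows) nor the cyclic AMP response element TGACGTCA (1.55%) was found in any window of the 8 genes. The share of G and C was 73.2% for Ep300 and 84.0% for Crebbp against a median of 52.4% over all windows, and 40.8% for the first Kat2b window. A match to these letters is a description of the window and not evidence of a bound factor.

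Library totals ran from 16707216 to 26983565 counts. Taf4b itself, the targeted gene, was at 271, 290.2, 142, 65.7 and 101 CPM (counts scaled to a common library size) in the libraries labelled heterozygous 1 to 5, and at 58.2 to 81.7 CPM in the deficient libraries. The library labelled heterozygous 4 thus lay within the deficient range. The germ cell markers summed to 3823 to 5626 CPM with the heterozygous genotype and 3117 to 4949 CPM with the deficient one, although Pou5f1, whose reporter was used for the sort, was at 0.173 to 1.16 CPM. Erythroid markers ranged from 65.0 to 2083 CPM in the heterozygous group and from 107 to 1605 CPM in the deficient group, with the highest sums in the library labelled heterozygous 4, heterozygous 5 and deficient 5. Markers of pregranulosa cells reached 79.2 CPM at most, macrophages 91.4, endothelium 74.7, stroma 25.8 and surface epithelium 18.9, and no marker of any list was at 0 in every library. In such bulk samples, fewer cells of a type and less RNA per cell cannot be told apart.

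All 9 genes passed the filter on low counts and all were detected in every library. With edgeR's quasi-likelihood test over 19244 genes and Benjamini-Hochberg adjustment, 0 of the 9 passed an adjusted p of 0.05, and 0.0% of all genes tested did. At an unadjusted p under 0.05, 1 gene was higher in deficient libraries (Ep300; 7.45% of all genes) and 2 were lower (Kat2a and Kat5; 9.13% of all genes). The log2 fold changes of the 9 genes, deficient over heterozygous, had a median of -0.07, with 4 above and 5 below 0. Over all genes tested the median was -0.02, with 9412 above and 9832 below 0. The set as a whole therefore showed no shared direction. Levels of 1 gene, Ep300, did not overlap between genotypes, as was the case for 3.53% of all genes (1.94% with the deficient libraries higher and 1.6% with them lower).

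**Figure D1:**
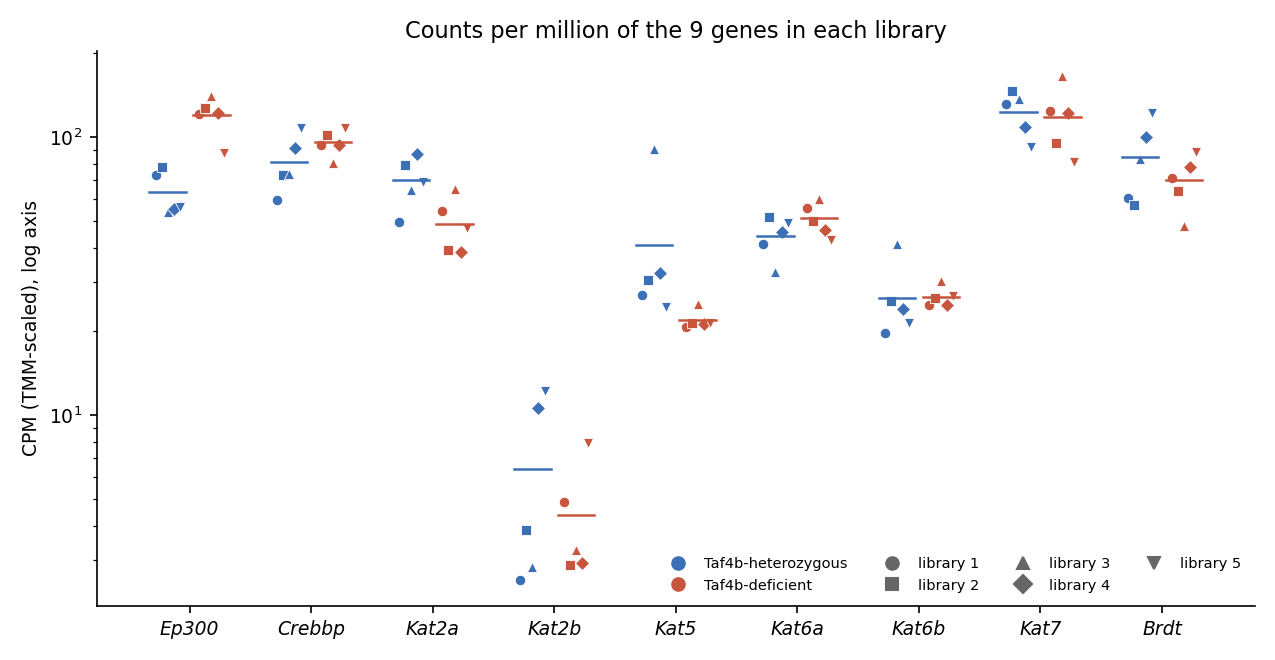
Level of each of the 9 genes in CPM (log axis) in each of the 10 libraries (symbols give the library number), with the mean of each genotype as a line. The 5 deficient libraries sit above the 5 heterozygous ones for Ep300, at 87.9 to 141 against 53.6 to 78.3 CPM, and the genotypes overlap for the other genes.

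**Figure D2:**
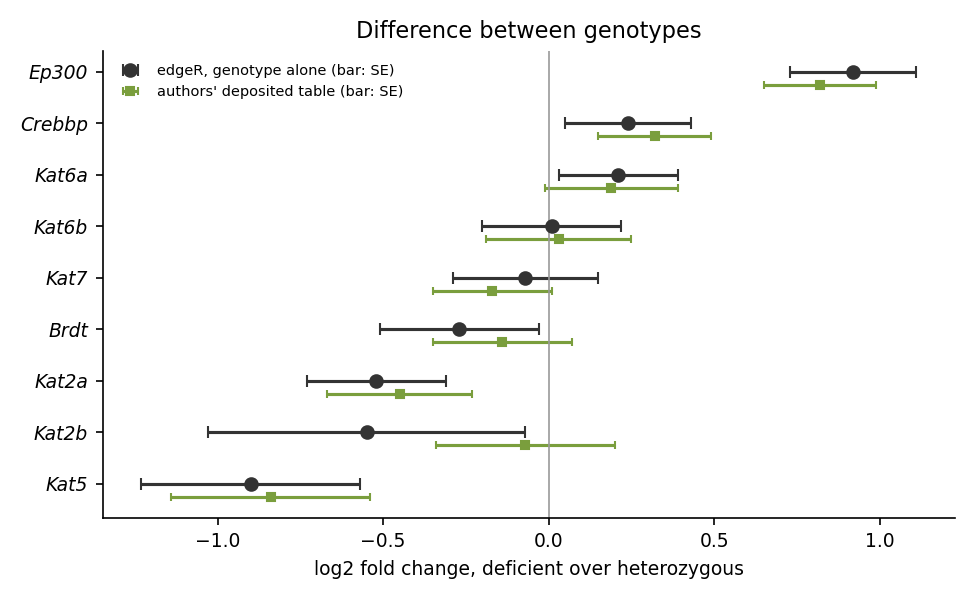
Log2 fold change of each gene, deficient over heterozygous, from edgeR (circles) and from the authors' deposited table (squares); bars are 1 standard error (SE) on either side. In edgeR, Ep300 is farthest above 0 at 0.92, and Kat5 farthest below at -0.90 with a wider bar.

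Ep300 encodes p300, a large coactivator that acetylates histones at enhancers and promoters (ENSMUSG00000055024, GRCm38 chr15:81585351-81652077, plus strand). Its level was 73.1, 78.3, 53.6, 55.3 and 56.0 CPM in the libraries labelled heterozygous 1 to 5 and 121, 127, 141, 122 and 87.9 CPM in deficient 1 to 5. Every deficient library was above every heterozygous one, with deficient 5 the lowest of its group and heterozygous 1 and 2 the highest of theirs. The means were 63.2 ± 11.5 CPM (SD, n = 5) and 119.8 ± 19.5 CPM (SD, n = 5), a fold of 1.89. On the log2 scale this was a fold change of 0.92 ± 0.19 (SE), at an unadjusted p of 0.000247 and an adjusted p of 0.113 in edgeR's quasi-likelihood test. The difference was therefore larger than the spread between libraries but did not pass the test across all genes.

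The call on Ep300 differed with the tool and the libraries. It passed with DESeq2 (log2 fold change 0.90, adjusted p 0.00348, where 3.02% of genes passed) and with limma voom and quality weights (0.92, adjusted p 0.036, where 2.65% passed). It also passed in edgeR without heterozygous 1 (0.98, adjusted p 0.0368, where 3.07% passed) and with a 3-level grouping of the libraries, rebuilt from the authors' deposited fold changes, in the edgeR model (0.83, adjusted p 0.0361, where 0.54% passed). In the authors' deposited table it had a log2 fold change of 0.82 ± 0.17 (SE) and an adjusted p of 0.000426, where 6.55% of the 17881 genes with an adjusted p passed and 1 of the 9 genes did. Over all 28 alternatives the log2 fold change stayed between 0.68 and 1.13, and the edgeR, DESeq2 and limma adjusted p between 0.00348 and 0.961. The highest p came from leaving out the second litter date. Without the library labelled heterozygous 4 the log2 fold change was 0.88 with an adjusted p of 0.296. Without the 3 libraries high in erythroid markers it was 0.91 with an adjusted p of 0.285. These libraries, labelled heterozygous 4, heterozygous 5 and deficient 5, also make up a whole level of the rebuilt grouping. Marker content and level therefore cannot be told apart here. Within the 3 litter dates the difference in mean log2 CPM was 0.68, 1.29 and 0.89, each with higher values in the deficient libraries.

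Crebbp encodes CBP, the paralog of p300 with largely shared partners (ENSMUSG00000022521, chr16:4081328-4213997, minus strand). It was at 59.6, 73.0, 73.4, 91.6 and 108 CPM in the libraries labelled heterozygous 1 to 5 and at 93.7, 102, 80.7, 94.0 and 108 CPM in deficient 1 to 5. The lowest values were those of heterozygous 1 to 3, and the genotypes overlapped. The means were 81.0 ± 18.7 and 95.7 ± 10.3 CPM (SD, n = 5 each), with a log2 fold change of 0.24 ± 0.19 (SE) and an adjusted p of 0.539.

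A ratio of paralogs within a library does not depend on how libraries are scaled. Per length, the ratio of Ep300 to Crebbp was 1.16, 1.02, 0.692, 0.573 and 0.493 in the libraries labelled heterozygous 1 to 5 and 1.23, 1.18, 1.66, 1.23 and 0.773 in deficient 1 to 5. In 4 of the 5 deficient libraries it was above every heterozygous one, and deficient 5 lay among the heterozygous values. The mean log2 ratio was -0.42 ± 0.53 in heterozygous and 0.24 ± 0.39 in deficient libraries (SD, n = 5 each), a difference of 0.66. A two-sided exact permutation test gave p = 0.0476, or 0.143 adjusted by Benjamini-Hochberg over the 3 ratios compared; the smallest p this design allows is 0.00794. Without deficient 5, the library that lay among the heterozygous values, the difference was 0.81 and the adjusted exact permutation p 0.0476. Leaving out that library removes all overlap, so its unadjusted p is the smallest that the remaining libraries allow. That result was fixed by the choice of library and adds no evidence. With each other library left out, the adjusted exact permutation p was 0.0952 to 0.286. The libraries with a low ratio include the library labelled heterozygous 4, heterozygous 5 and deficient 5. These were also those with the highest sums of erythroid and stroma markers and high sums of pregranulosa markers. They make up a whole level of the rebuilt grouping as well. The part of markers or of level in the ratio was not tested.

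**Figure D3:**
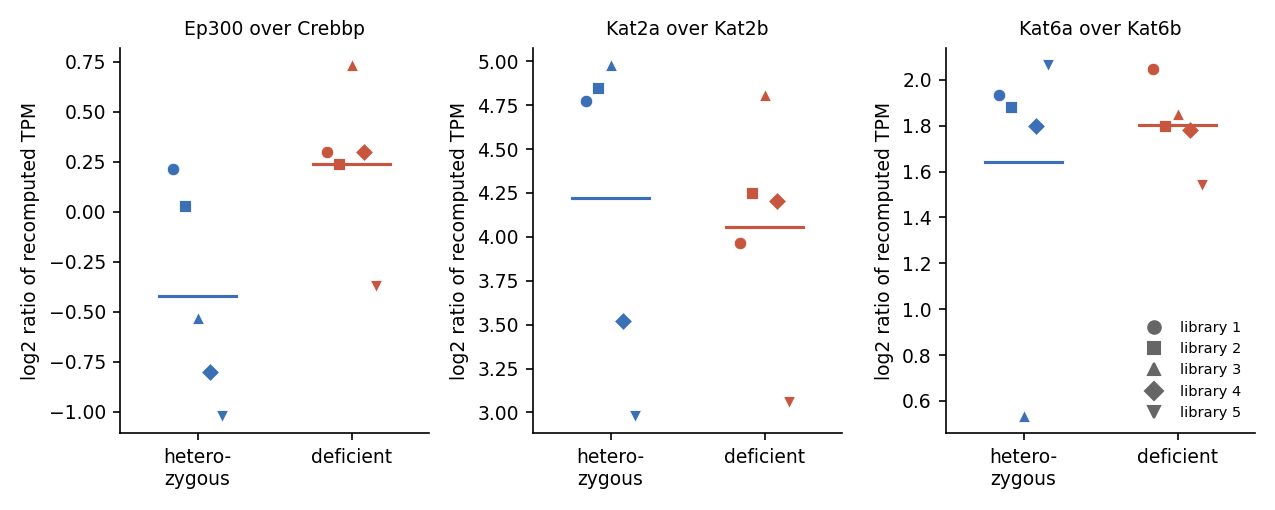
Log2 ratio of recomputed TPM of 3 paralog pairs in each library (symbols give the library number), with the mean of each genotype as a line; each panel has its own scale. As a plain ratio, Ep300 over Crebbp lies at 0.493 to 1.16 in heterozygous and 0.773 to 1.66 in deficient libraries, and the other ratios overlap throughout, with heterozygous 3 alone at 1.45 for Kat6a over Kat6b.

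Ep300 is a long gene, with 14273 exonic bases, and the values of long genes are given beside it. The 652 tested genes with over 13000 exonic bases had a median log2 fold change of 0.21, against 0.05 for the 5144 genes of up to 2000 bases and -0.10 for the 7725 genes of 2000 to 5000 bases. Of these long genes, 19.5% were higher and 5.06% lower in deficient libraries at an unadjusted p under 0.05, beside 7.45% and 9.13% of all genes. Levels higher without overlap were found for 5.06% of them, beside 1.94% of all genes. A log2 fold change at least that of Ep300 was found for 4.14% of them. The share was 6.55% for genes of up to 2000 bases and 4.17% for 2000 to 5000 bases. It was 3.02% for 5000 to 10000 bases and 3.03% for 10000 to 13000 bases. Centred on each gene's mean, the median log2 level of the genes over 13000 bases was -0.11, 0.08, -0.14, -0.19 and -0.18 in the libraries labelled heterozygous 1 to 5. In deficient 1 to 5 it was 0.17, 0.19, 0.26, 0.10 and -0.03. As for Ep300, deficient 3 was highest and deficient 5 lowest among the deficient libraries, and heterozygous 2 was highest among the heterozygous ones, followed by heterozygous 1. Among the 9 genes, Ep300, Crebbp and Kat6b had over 13000 exonic bases, at 14273, 13540 and 16826. Their log2 fold changes were 0.92, 0.24 and 0.01. The part of exon length in the Ep300 result was not tested.

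**Figure D4:**
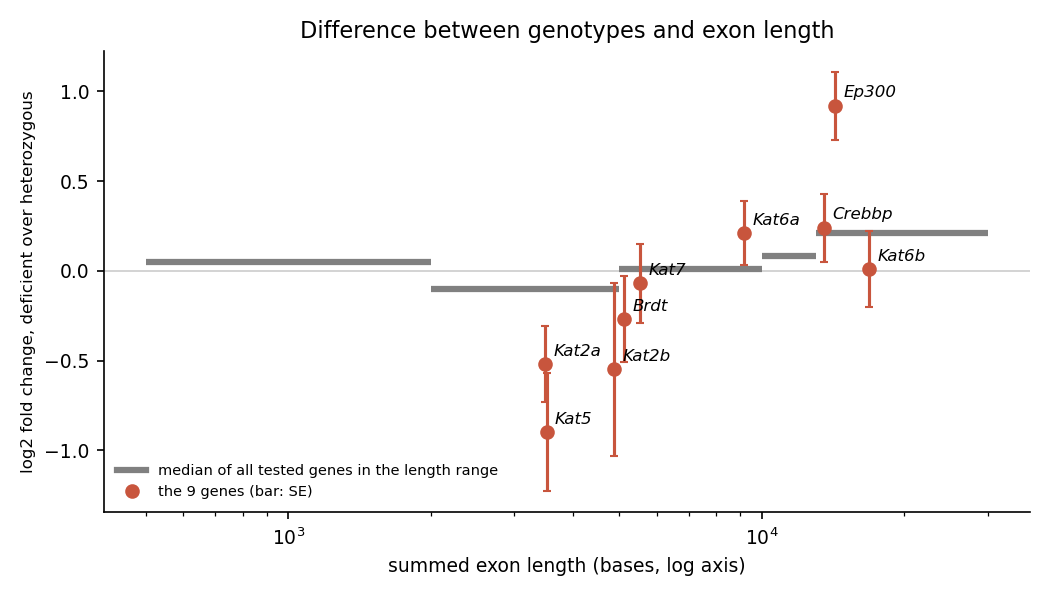
Median log2 fold change of all tested genes by summed exon length (log axis), with the 9 genes as points and their SE as bars; the ends of the outermost bins are drawn at fixed positions. The longest bin lies highest at 0.21, and Ep300 lies above the median of its bin.

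By the rule for likeness, the genes whose centred log2 CPM profile over the 10 libraries was closest to that of Ep300, among 13666 compared, were Apc (root mean square difference 0.10), Zfp217 (0.11) and Setd5 (0.11). Apc encodes a scaffold of the Wnt pathway, and it ranged from 39.1 to 68.7 CPM in the heterozygous group and from 70.1 to 98.5 CPM in the deficient group. Zfp217, a zinc finger protein gene, was at 25.3 to 36.5 and 41.2 to 59.0 CPM. Setd5, a SET domain protein gene, was at 84.8 to 141 and 137 to 207 CPM.

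Kat2a encodes GCN5, the acetyltransferase of the SAGA and ATAC coactivator complexes (ENSMUSG00000020918, chr11:100704746-100712465, minus strand). It was at 49.7, 79.4, 64.3, 87.2 and 69.1 CPM in the libraries labelled heterozygous 1 to 5 and at 54.4, 39.1, 65.2, 38.5 and 47.2 CPM in deficient 1 to 5. Deficient 2, 4 and 5 were below every heterozygous library, and the others overlapped. The means were 69.96 ± 14.4 and 48.9 ± 11.2 CPM (SD, n = 5 each). This gave a log2 fold change of -0.52 ± 0.21 (SE), at an unadjusted p of 0.0267 and an adjusted p of 0.246 in edgeR's quasi-likelihood test. It was below 0 under all 28 alternatives, from -0.64 to -0.39, and passed under none. Within the litter dates the difference was -0.21, -0.57 and -0.70.

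Kat2b encodes PCAF, which takes the place of GCN5 in the same complexes (ENSMUSG00000000708, chr17:53566861-53672720, plus strand). It was at 2.54, 3.86, 2.85, 10.6 and 12.2 CPM in the libraries labelled heterozygous 1 to 5 and at 4.88, 2.88, 3.26, 2.93 and 7.91 CPM in deficient 1 to 5, with counts from 47 to 267. Its 3 highest values came from the library labelled heterozygous 4, heterozygous 5 and deficient 5, again those with the highest erythroid sums, and the genotypes overlapped. Stroma marker sums were also highest in these libraries, at 16.7, 18.6 and 25.8 CPM against at most 11.5 CPM elsewhere, and pregranulosa sums were 79.2, 68.0 and 70.5 CPM there, with 73.1 CPM in deficient 3. The log2 fold change was -0.55 ± 0.48 (SE), adjusted p 0.587. Without those 3 libraries the Kat2b value was 0.18, with an adjusted p of 0.842 in edgeR. They also make up a whole level of the rebuilt grouping, and the part of markers or of level was not tested. Kat2a was 7.90 to 31.5 times Kat2b per length in heterozygous and 8.34 to 28.0 times in deficient libraries, and the log2 ratio differed by -0.17 (exact permutation p = 0.722, adjusted 0.865).

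Kat5 encodes TIP60, the catalytic subunit of the NuA4 complex, with roles in transcription and the response to DNA breaks (ENSMUSG00000024926, chr19:5603014-5610237, minus strand). It was at 27.0, 30.6, 90.4, 32.4 and 24.4 CPM in the libraries labelled heterozygous 1 to 5 and at 20.8, 21.5, 25.0, 21.3 and 21.4 CPM in deficient 1 to 5. Heterozygous 3 stood far above the other libraries, and 4 of the 5 deficient libraries were below every heterozygous one. The means were 41.0 ± 27.8 and 22.0 ± 1.71 CPM (SD, n = 5 each). Their log2 fold change was -0.90 ± 0.33 (SE), at an unadjusted p of 0.017 and an adjusted p of 0.214 in edgeR's quasi-likelihood test. Without heterozygous 3 it was -0.39 with an adjusted p of 0.280, so the size of the difference rested largely on that library. The authors' deposited table gives -0.84 ± 0.30 (SE) with an adjusted p of 0.0651.

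Exons of Kat5 share 426 bases with Rnaseh2c, which encodes a ribonuclease subunit and lies on the opposite strand. Rnaseh2c had 807 to 1801 counts per library, and Kat5 350 to 2092. The strand setting of the counting is not given in the sources used here, and reads of the shared bases cannot be assigned to one gene. In heterozygous 3, where Kat5 was highest, Rnaseh2c was at 56.5 CPM, within the range of 37.0 to 83.1 CPM of the other heterozygous libraries.

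Kat6a encodes MOZ and Kat6b its paralog MORF, catalytic subunits of complexes with BRPF proteins (ENSMUSG00000031540, chr8:22859535-22943259, and ENSMUSG00000021767, chr14:21481434-21672478, both plus strand). Kat6a was at 41.3, 51.7, 32.6, 45.6 and 48.9 CPM in the libraries labelled heterozygous 1 to 5 and at 55.8, 50.05, 59.9, 46.5 and 42.7 CPM in deficient 1 to 5. Kat6b was at 19.8, 25.8, 41.2, 24.0 and 21.4 CPM and at 24.8, 26.4, 30.4, 24.8 and 26.9 CPM in the same order. Both overlapped between genotypes, and heterozygous 3 had the lowest Kat6a and the highest Kat6b of all libraries. The log2 fold changes were 0.21 ± 0.18 (SE; adjusted p 0.570) for Kat6a and 0.01 ± 0.21 (SE; adjusted p 0.985) for Kat6b. The sign for Kat6b turned under 16 of the 28 alternatives, within -0.13 to 0.25. The ratio of Kat6a to Kat6b per length was 1.45 in heterozygous 3 and 2.91 to 4.18 in the other 9 libraries, and the log2 ratio differed by 0.16 between genotypes (exact permutation p = 0.865, adjusted 0.865).

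Kat7 encodes HBO1, a MYST enzyme linked to replication origins (ENSMUSG00000038909, chr11:95274259-95310246, minus strand). It was at 132, 146, 137, 109 and 92.1 CPM in the libraries labelled heterozygous 1 to 5 and at 124, 95.6, 166, 122 and 81.5 CPM in deficient 1 to 5. The values overlapped, and the library lowest in each group was the one numbered 5. The means were 123 ± 22.1 and 118 ± 32.5 CPM (SD, n = 5 each), the log2 fold change was -0.07 ± 0.22 (SE) and the adjusted p 0.904. The value 2 SE below it is -0.50, so a difference of that size lies within the error.

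Brdt, the bromodomain gene of the BET family with germ cell expression (ENSMUSG00000029279, chr5:107331159-107387058, plus strand), was transcribed in all oocyte libraries. It was at 60.4, 56.9, 83.3, 99.9 and 122 CPM in the libraries labelled heterozygous 1 to 5 and at 71.4, 64.2, 47.8, 78.1 and 88.1 CPM in deficient 1 to 5. The highest values in each group came from the libraries numbered 4 and 5, and the genotypes overlapped. Across all libraries the highest were heterozygous 5, the library labelled heterozygous 4 and deficient 5, which also had the highest erythroid sums. The means were 84.4 ± 27.2 and 69.9 ± 15.2 CPM (SD, n = 5 each). The log2 fold change was -0.27 ± 0.24 (SE), adjusted p 0.593. It was -0.03 without the library labelled heterozygous 4, heterozygous 5 and deficient 5, and -0.0049 without the second litter date. Within the labelled litter dates the difference was 0.28, -0.72 and -0.55. Within the levels of the rebuilt grouping, which differ from the labelled dates, it was 0.16, -0.17 and -0.32. The profiles closest to that of Brdt were those of Prdx4, which encodes a peroxiredoxin (root mean square difference 0.11), Gm15672, a predicted gene (0.12), and Edf1 (0.13).

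Whether the difference between genotypes varied with litter date was tested as an interaction in edgeR, and none of the 9 genes passed. Its unadjusted p ran from 0.139 for Brdt to 0.872 for Kat7, and every adjusted p was 0.99996; 0.0% of all genes passed that test and 1.85% had an unadjusted p under 0.05. With only 1 to 2 libraries of a genotype at a date, this test has little precision.

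Levels between genes were compared per length, as TPM recomputed from the counts and the summed exon lengths of GENCODE M21, because the deposited TPM were not scaled by each gene's own length. Within a library each deposited value was the count divided by a constant of the gene, over 20977 genes with a count in every library. That constant rose with the alphabetical order of the exon lengths written as text (Spearman's rho 1.00 across genes, which are not independent) and not with the length itself (0.277). To express the constant as a length, it was scaled by its median ratio to exon length in genes of 2000 to 5000 bases. Kat2a, Kat2b and Kat5 fall in that range, so a match to their length follows in part from the scaling. For Ep300, with 14273 exonic bases, the constant corresponded to a length of 1160 bases. It corresponded to 1010 bases for Crebbp, with 13540, and to 1590 bases for Kat6b, with 16826. It was close to the exon length for others, at 3460 against 3480 bases for Kat2a, 3490 against 3509 for Kat5, 4700 against 4867 for Kat2b, 5270 against 5536 for Kat7 and 4910 against 5115 for Brdt, and lower for Kat6a, at 7640 against 9180. The mean deposited TPM was thus 91.5 for Ep300, 105 for Crebbp and 19.7 for Kat6b, where the recomputed TPM were 18.0, 18.5 and 4.47. For Kat7 the values were 26.9 and 61.8, and for Kat2a 20.8 and 49.1. On the deposited scale Crebbp and Ep300 led the 9 genes, and on the recomputed scale they came at ranks 5 and 6. A gene's own constant was the same in all libraries, but the scale of each library's TPM rests on the constants of all genes. The comparison of one gene between genotypes therefore depends on them slightly. With 1 added before the log, Ep300 differed by 0.80 on both the deposited and the recomputed scale. Crebbp differed by 0.15 and 0.18, and Kat7 by -0.19 and -0.16. The edgeR tests use counts and not these constants.

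**Figure D5:**
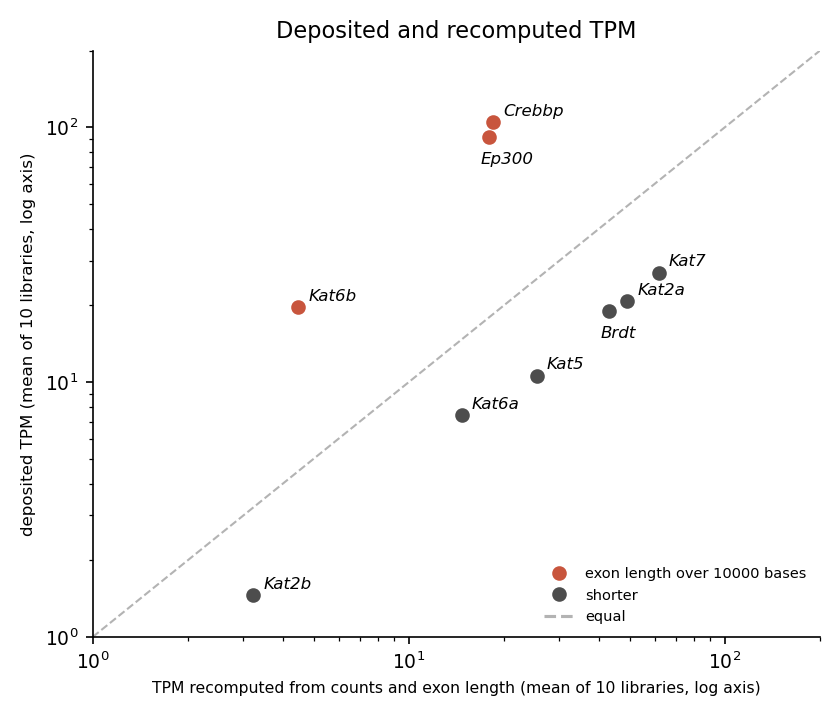
Mean deposited against mean recomputed TPM (both log axes) of the 9 genes over 10 libraries, with the line of equality. Ep300, Crebbp and Kat6b, with over 10000 exonic bases, lie above the line and the other 6 genes below it.

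On the recomputed scale Kat7 was highest at 61.8 ± 14.5 TPM (SD, n = 10), followed by Kat2a at 49.1 ± 16.9 and Brdt at 42.9 ± 13.3. Kat7 was above Kat2a in 8 of 10 libraries and Kat2a above Brdt in 6, so these neighbours lay within one another's spread. Kat5 followed at 25.4 ± 16.7 TPM and was below Brdt in 9 of 10 libraries. Next came Crebbp at 18.5 ± 3.58, Ep300 at 18.0 ± 6.21 and Kat6a at 14.7 ± 2.77 TPM. Kat5 was above Crebbp in 5 libraries, Crebbp above Ep300 in 4 and Ep300 above Kat6a in 7, so that their order was not settled. Kat6b at 4.47 ± 1.00 TPM was below Kat6a in 10 of 10 libraries, and Kat2b had the lowest mean at 3.21 ± 2.23 TPM. Kat6b was above Kat2b in 7 of 10 libraries, so the order of these genes was not settled either. With the length of the longest transcript in place of all exons, Crebbp and Ep300 changed places and the other ranks held.

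Further genes of histone acetylation were described from 10 lists of 134 genes, chosen by known complex membership, of which 133 were tested. None passed edgeR's adjusted p of 0.05, as for all genes tested. Per list, the gene with the smallest p and the gene with the highest mean deposited TPM are given, although the latter scale is distorted as described.

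Among 28 other bromodomain genes, 11 were higher and 2 lower in deficient libraries at an unadjusted p under 0.05, beside 7.45% and 9.13% of all genes. Their median log2 fold change was 0.41, and 21 were above 0. Of the 28, 11 had over 13000 exonic bases, and these held 5 of the 11 higher genes; the median was 0.41 in these long genes and 0.40 in the others. Trim28, which encodes the corepressor KAP1, had a mean of 116 ± 30.3 CPM in the heterozygous group and 197 ± 22.3 CPM in the deficient group (SD, n = 5 each; log2 fold change 0.76 ± 0.20 SE, adjusted p 0.145). Baz2a was at 137 ± 26.9 and 193 ± 45.1 CPM (0.49 ± 0.21 SE, adjusted p 0.270). Trim28 passed with DESeq2 (adjusted p 0.0496) and with limma voom (0.0364). Kmt2a of the same list was named after its values were seen. It encodes a histone methyltransferase, was at 44.5 ± 13.4 and 82.6 ± 19.7 CPM and passed with DESeq2, with limma voom and without heterozygous 1.

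Subunits of the complexes around the enzymes were found on both sides. Of 22 tested SAGA and ATAC subunits, which surround Kat2a and Kat2b, 1 was higher and 5 were lower at an unadjusted p under 0.05, with a median of -0.13, beside 7.45% of all genes higher and 9.13% lower. The adaptor gene Tada2b was at 7.60 ± 3.09 and 14.1 ± 1.32 CPM (0.89 ± 0.27 SE, adjusted p 0.166; 0.0378 with limma voom), and Zzz3 at 99.8 ± 14.7 and 105 ± 9.58 CPM. Of 17 TIP60 complex subunits, which surround Kat5, 2 were higher and 1 lower, beside the same shares of all genes, with a median of -0.18. Epc2, a scaffold subunit, was at 20.2 ± 2.01 and 32.2 ± 7.15 CPM (0.67 ± 0.19 SE, adjusted p 0.155), and Brd8 at 125 ± 22.4 and 127 ± 26.0 CPM. None of 9 subunits around Kat6a, Kat6b and Kat7 reached an unadjusted p of 0.05. Of these, Brpf3 was at 42.9 ± 36.4 and 88.8 ± 35.9 CPM and Jade3 at 376 ± 181 and 486 ± 244 CPM. None of 14 partners of CBP and p300 did either, with Smad3 at 6.27 ± 3.01 and 9.21 ± 3.99 CPM and Cited1 at 161 ± 93.7 and 157 ± 31.8 CPM.

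Of 16 other acetyltransferases, 1 was higher and none lower at an unadjusted p under 0.05, near the 7.45% of all genes that were higher. This was Ncoa1, a nuclear receptor coactivator gene, at 35.5 ± 7.06 and 54.0 ± 11.1 CPM (0.60 ± 0.20 SE, adjusted p 0.186), while Hat1, which acetylates new histones, was at 626 ± 80.03 and 706 ± 112 CPM. Among 4 YEATS readers, another acetyl-lysine binding family, Mllt1 was at 20.7 ± 9.30 and 37.8 ± 17.6 CPM (adjusted p 0.245) and Yeats2 at 40.3 ± 10.2 and 46.3 ± 7.97 CPM.

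On the side of removal, none of 11 histone deacetylases reached an unadjusted p of 0.05, and their median was -0.10. Hdac8 was at 10.3 ± 6.18 and 6.18 ± 1.45 CPM and Hdac1 at 404 ± 97.9 and 339 ± 44.9 CPM. Of 7 sirtuins, which deacetylate with NAD, 1 was higher and 1 lower, beside 7.45% and 9.13% of all genes, with a median of -0.41. Sirt1 was at 54.0 ± 8.13 and 92.6 ± 15.8 CPM without overlap (0.78 ± 0.18 SE, unadjusted p 0.000736, adjusted p 0.117), and it passed with DESeq2 (0.0134) and limma voom (0.0364). Sirt7 was at 277 ± 197 and 280.3 ± 45.2 CPM. Of 8 genes of acetyl-CoA supply, 3 were lower and none higher at an unadjusted p under 0.05, beside 9.13% and 7.45% of all genes, with a median of -0.35. Acly, which makes acetyl-CoA from citrate, was at 145 ± 28.3 and 85.5 ± 39.95 CPM (-0.76 ± 0.28 SE, adjusted p 0.213), and Acss2, which makes it from acetate, at 499 ± 382 and 505 ± 179 CPM.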

How the data were processed

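The authors deposited whole-number counts per gene, TPM per gene and a table of their DESeq2 comparison, with log2 fold changes, p-values, a Wald score and mean normalized counts (a signal), per the file headers. The submitters' processing notes name Trim Galore 0.5.0, HISAT2 2.1.0, featureCounts of Subread 1.6.2, StringTie 1.3.3b and GRCm38; the strand setting is not given in the sources used here. The deposited TPM were not used to compare genes, for the reason given in the text. The 382 genes without a symbol took 0.0632% to 0.0945% of a library's counts.

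Counts of all genes were tested with edgeR 4.0.16 (R 4.3.3) on genotype alone, with TMM scaling, edgeR's expression filter and Benjamini-Hochberg adjustment over 19244 genes, called under 0.05. CPM use TMM-scaled library sizes, and SE is the fold change over the square root of F. Paralog ratios were compared by exact permutation. On simulated counts from these libraries, 16.5% of 97 genes changed 2-fold and 68.4% of 95 changed 4-fold were recovered among 18762 tested, and 4 of 18570 unchanged genes were called. Alternatives covered scaling, filters, DESeq2 1.42.0, limma 3.58.1 (voom, and log2(TPM + 1 or 0.1)), covariates and left-out libraries; 4 were added after seeing the data. The genes, lists and alternatives were chosen with earlier results of these data known. Named were all 9 genes, 2 genes per list (smallest p, highest mean deposited TPM), the 3 closest profiles to Ep300 and Brdt among genes with a mean log2 CPM of at least 1, and Taf4b and Hba-a1 as library checks. Hba-a1 was at 24.0 to 798 CPM in heterozygous and 36.1 to 589.5 CPM in deficient libraries. Of the listed genes, 1 is not reported here.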

Additional observations from a re-analysis of the deposited data

Results flagged for a closer look

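In a group of 5 libraries, 4 of 24 groups examined held a library whose gap to its nearest neighbour took more than 0.71 of the group's range. For independent groups of normally distributed values, chance does so for about 1 group in 20. The 24 groups share libraries and genes and are not independent. Kat5 was at 90.4 CPM in heterozygous 3, against 24.4 to 32.4 CPM in the other heterozygous libraries. Kat5 was also highest in deficient 3, at 25.0 CPM against 20.8 to 21.5 CPM in the other deficient libraries, a far smaller gap. Kat6b was at 41.2 CPM in heterozygous 3, against 19.8 to 25.8 CPM. The ratio of Kat6a to Kat6b was 1.45 in heterozygous 3, against 3.48 to 4.18. Of these, 3 come from the same library, and the last shares Kat6b with the one before it.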

How the results depend on the processing

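Of the 9 genes, 1 (Ep300) passed an adjusted p of 0.05 under DESeq2, under limma voom with quality weights and with the grouping that rebuilds the deposited fold changes in the model, the last chosen after seeing the data, and 0 to 1 when 1 library was left out. Of the listed genes 3 passed under DESeq2, 4 under limma voom and 0 to 3 with 1 library left out. Over all genes 643 passed under DESeq2, 510 under limma voom, 104 with that grouping and 606 without heterozygous 1, against 0. In edgeR without a filter on low counts, 251 of 44767 genes passed. There 0 of the 9 genes did, with Ep300 at an adjusted p of 0.0599. Kat6b turned to -0.01 with RLE scaling, -0.0040 with upper-quartile scaling, -0.01 without a filter, -0.02 with DESeq2, -0.05 with log2(TPM + 1) or log2(TPM + 0.1), -0.02 with recomputed TPM, -0.08 with the first litter date left out, -0.04 with the last left out, and -0.13 without the library labelled heterozygous 4, heterozygous 5 and deficient 5; with 1 library left out it ran from -0.08 to 0.22. Kat7 turned to 0.03 with litter date in the model and 0.05 without the first date, and ran from -0.22 to 0.03 with 1 library left out. Kat2b turned to 0.18 without those 3 libraries. With 1 library left out, the difference of log2 ratios ran from 0.51 to 0.82 for Ep300 over Crebbp. It passed only without deficient 5, at 0.81, a choice of library that by itself removes all overlap. The difference ran from -0.48 to 0.08 for Kat2a over Kat2b (0.02 without heterozygous 3). For Kat6a over Kat6b it ran from -0.11 to 0.27. The cause was not tested. Same-numbered libraries correlated at 0.169, 0.035, 0.118, -0.262 and 0.593. Of the heterozygous libraries, only number 5 correlated best with the deficient library of its own number, so numbers were not taken to pair them. With the number as a replicate block, Ep300 was at 0.92 (adjusted p 0.110), 0 of the 9 genes passed, 1 gene passed in all, and the log2 ratios differed by 0.66, -0.17 and 0.16. Depth limited Kat2b most, at 47 to 267 counts.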

Other observations

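The grouping of libraries behind the authors' deposited fold changes was rebuilt as 3 levels. DESeq2 refitted with it matched all 31181 deposited log2 fold changes within 0.00555 and gave 1172 calls in both. A library's level equalled its own labelled litter date in 6 of 10 libraries, and the labelled date of the same-numbered library of the other genotype in 10 of 10. With these levels in place of dates, the Ep300 difference within a level was 0.76, 1.02 and 0.66 on the log2 scale, and that of Kat2b 0.55, -0.10 and -0.52. Which of the labels and the deposited comparison holds the true dates was not tested.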
